A study of Rattus norvegicus with 3 samples.

Results

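Strong distal DLX3 peaks are sites of high ChIP-seq score for DLX3 that lie well away from the histone mark of active promoters in rat enamel organ. The study profiled DLX3 and H3K4me3 by chromatin immunoprecipitation sequencing in enamel organs of adult wild-type rats, dissected from the lower incisors, with 1 library per antibody and 1 input library without antibody. All 3 libraries share the tissue, genotype and stage, and the labels do not say how many animals were pooled. The antibody field of the labels reads anti-DLX4 and anti-H3K4me4 where the titles read DLX3 and H3K4me3, and the titles were followed here. The members were chosen by measured values: a DLX3 score of 250 or more, a width under 4000 bp, and a nearest H3K4me3 peak more than 10 kb and up to 100 kb away, edge to edge. This left 2284 of the 69263 DLX3 peaks. They were set against 19432 weak distal DLX3 peaks, which met the same limits of width and distance but scored under 100. A further 9337 distal peaks of intermediate score lay between these classes. No library has a replicate, so no p-value was computed. Intervals are 95% intervals over peaks (Wilson for shares, order statistics for medians). They cover counting error only, and they treat peaks as independent although neighbouring peaks are not.

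DLX3 is a homeodomain transcription factor of the distal-less family, expressed in the epithelium of teeth, hair and skin. Mutations of its gene cause tricho-dento-osseous syndrome, in which enamel is thin or poorly mineralised. The enamel organ is the epithelial tissue whose ameloblasts secrete and mature the enamel matrix. H3K4me3 is concentrated at the start sites of active genes, whereas many regulatory elements that act from a distance carry little of it. The lists hold positions and scores only, in build rn5, with no gene annotation or sequence of that build in hand, so sites are named by position. Whether a distal site acts on any gene was not measured.

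Strong peaks were found on every chromosome, but they were a small share of the distal DLX3 peaks. The score is the authors' deposited value per peak, and it is used here only to rank peaks within a list. In the whole DLX3 list 8691 peaks (12.5%) scored 250 or more, and 7846 of these were under 4000 bp wide. Of those 7846, 4020 (51.2%) overlapped H3K4me3, 127 lay within 1 kb of it, 1070 lay over 1 to 10 kb away, 2284 (29.1%) were the members, and 345 lay over 100 kb away. Among peaks under 4000 bp, the share scoring 250 or more was 23.7% on the mark and 7.36% (interval 7.07 to 7.65%) at over 10 to 100 kb. Within that range the share was 7.44% at over 10 to 20 kb, 7.36% at over 20 to 50 kb and 7.23% at over 50 to 100 kb. Over 100 kb away it was 6.55% (interval 5.91 to 7.25%). These counts follow from the values that chose the members and are given as a description.

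The members' own scores ran from 250.02 to 2365, with a median of 332.3 and quartiles of 281.2 and 423.3. None of them was at 3100, the value that many of the strongest peaks in both lists share. Their widths ran from 317 to 3983 bp with a median of 1396 bp, against a median of 771 bp for the weak distal peaks. The difference in width was 625 bp (interval 577 to 662 bp), and results are therefore also given by width. The median distance to H3K4me3 was 28.6 kb for the members (28619 bp) and 29.1 kb for the weak peaks (29115 bp), a difference of -496 bp (interval -1779 to 967 bp). Just inside the limits, the lowest member scores were 250.02 and 250.04, and just outside were 249.91 and 249.96. The widest members measured 3978 and 3983 bp, and the next strong distal peaks 4022 and 4034 bp. The nearest members to the mark lay 10017 and 10018 bp away, with strong peaks at 9983 and 9999 bp just outside. The farthest lay 99944 and 99946 bp away, with 100003 and 100134 bp just outside. The width limit left out 202 strong distal peaks.

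The number of members on an autosome broadly followed the number of distal DLX3 peaks there. Chromosome 1 held the most, 227, and chromosome 20 the fewest of the autosomes, 52. The share of distal peaks that were strong was 7.37% over the autosomes and lay between 5.46% (chromosome 14, interval 4.37 to 6.82%) and 9.12% (chromosome 9, interval 7.82 to 10.6%). The intervals of chromosomes 7, 14 and 16 lay below the autosomal share and that of chromosome 9 above it. Chromosome X held 7 members among 175 distal peaks, a share of 4% whose interval, 1.95 to 8.03%, takes in the autosomal share. The low number on X therefore goes with the low number of distal DLX3 peaks there, 1.13 per Mb of chromosome span against 7.65 on chromosome 2, the lowest autosome. A lower strong share on X was not detectable with 7 members.

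**Figure D1:**
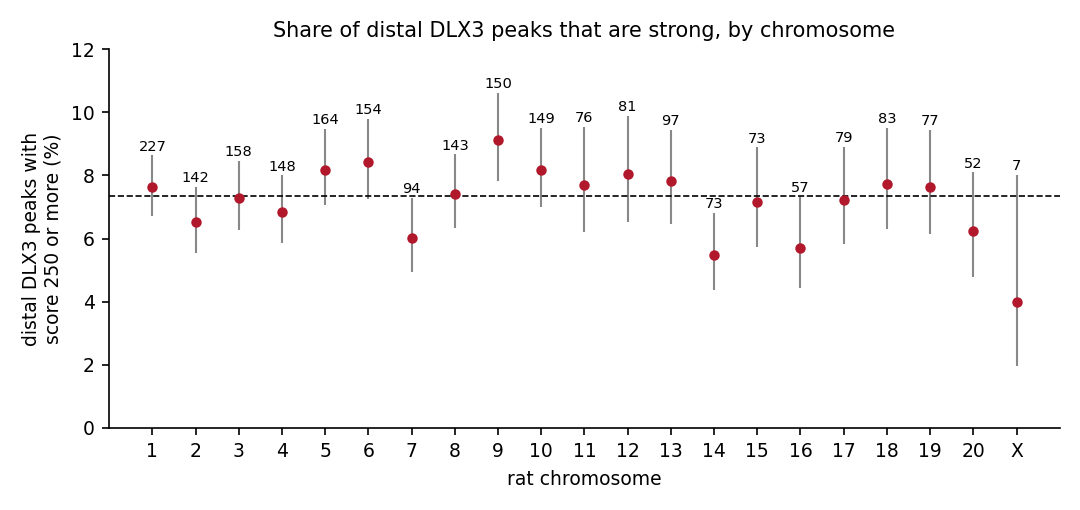
Percentage of distal DLX3 peaks (over 10 to 100 kb from H3K4me3, under 4000 bp wide) that score 250 or more, by rat chromosome. Points are shares, bars are 95% Wilson intervals, numbers are the counts of members, and the dashed line is the share over all chromosomes, 7.36%; chromosome 9 is highest at 9.12% and X lowest at 4% with 7 members.

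The 10 members of highest score differed in their surroundings. The strongest, chr9:79918339-79920612, scored 2365, was 2274 bp wide and lay 11.7 kb from an H3K4me3 peak of score 3000 that holds 2 DLX3 peaks. The next, chr2:223364678-223368294, scored 1574 and lay 90.4 kb from a faint H3K4me3 peak of score 76.1, which overlaps a DLX3 peak of score 2546. The third, chr9:17622862-17626193, scored 1370 and had 43 other DLX3 peaks within 50 kb, 24 of them scoring 250 or more. These 3 sites range from few to very many neighbours, and from a faint to a high-scoring marked region.

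Next in rank was a pair on chromosome 12. The peak chr12:41475999-41479266 scored 1253, and chr12:41472062-41475925 scored 1190. They lie 73 bp apart, with 23 other DLX3 peaks within 50 kb of each. Both are nearest to an H3K4me3 peak of score 169.1 without DLX3.

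The remaining 5 were narrower, at 822 to 1689 bp. The peak chr4:188282826-188284253 scored 1114 and had 13 other DLX3 peaks within 50 kb. The peak chr6:2608074-2609443 scored 1107 and chr10:37578723-37579544 scored 1085, with 5 and 2 other DLX3 peaks in that window. The last were chr1:225085577-225087265, with a score of 1063 and 2 such neighbours, and chr3:174264665-174265815, with 1036 and 5. Apart from the chromosome 4 site, with 1, these 5 had no other strong DLX3 peak within 50 kb. High score thus occurred both in crowded stretches and at nearly solitary sites.

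Strong distal peaks lay closer to another DLX3 peak than weak ones did. Spacing was measured as the gap to the nearest other DLX3 peak of any score, a quantity that did not choose the members. The median gap was 2080 bp for the members (interval 1872 to 2325 bp) and 3926 bp for the weak peaks (3773 to 4051 bp), a difference of -1846 bp (-2088 to -1557 bp). Peaks of intermediate score were between them, at 2628 bp. The quartiles of the members' gaps were 369 and 7301 bp, and 671 members (29.4%) had a gap of over 1000 to 5000 bp. Gaps of up to 200 bp were found for 418 members (18.3%, interval 16.8 to 19.9%) and for 9.97% of the weak peaks. At the other end, 440 members (19.3%) and 29.6% of the weak peaks were over 10 kb from any other DLX3 peak. The difference in median gap had the same sign at each distance from the mark: -1338 bp at over 10 to 20 kb, -1945 bp at over 20 to 50 kb, and -2022 bp at over 50 to 100 kb.

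**Figure D2:**
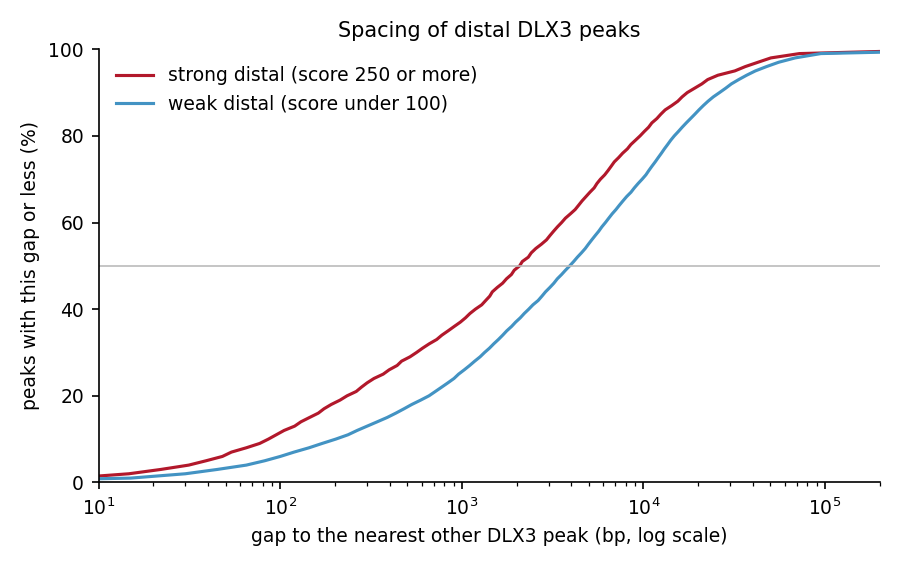
Cumulative percentage of strong and weak distal DLX3 peaks (y axis) against the gap to the nearest other DLX3 peak in bp (x axis, log scale). The curve of the strong peaks lies to the left, crossing 50% at 2080 bp against 3926 bp for the weak peaks.

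The members also had more DLX3 peaks around them. Within 50 kb on either side, edge to edge, members had a median of 9 other DLX3 peaks (quartiles 5 and 15, at most 47), and weak peaks had 7 (quartiles 4 and 12). Having 10 or more such neighbours was recorded for 1075 members (47.1%, interval 45.0 to 49.1%), for 43.7% of the intermediate peaks and for 36.1% of the weak peaks. The difference between strong and weak was 10.96 percentage points (interval 8.81 to 13.1). Only 48 members (2.10%) and 3.73% of the weak peaks had none. Strong neighbours were more frequent: 64.6% of the members had at least 1 other DLX3 peak of score 250 or more in the window, against 52.2% of the weak peaks, and 24.3% against 12.9% had 3 or more. The median number of strong neighbours was 1 in both groups, and the mean was 1.91 and 1.05. Split into 5 width classes, narrowest first, the difference in the share with at least 1 strong neighbour was 4.48, -7.03, -1.42, 3.03 and 4.03 points, and the one interval among them that leaves out 0 is that at 750 to under 1000 bp (-12.1 to -1.95). Neighbours scoring under 100 differed less in the mean, at 5.29 and 4.84, and their median was 4 in both groups. DLX3 peaks on H3K4me3 did not set the groups apart, being present within 50 kb of 64.5% of the members and 64.6% of the weak peaks.

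This crowding went with peak width. In members and weak peaks alike, wider peaks had more neighbours: the share of members with 10 or more was 22.5% under 750 bp, 24.3% at 750 to under 1000 bp, 36.1% at 1000 to under 1500 bp, 53.3% at 1500 to under 2000 bp and 76.9% at 2000 bp or more. For weak peaks the shares in the same classes were 25.4%, 38.9%, 48.6%, 63.7% and 69.7%. Between 750 and 2000 bp the members therefore had fewer crowded sites than weak peaks of like width, with differences of -14.6, -12.4 and -10.3 percentage points, and no interval of these 3 differences reached 0 (the nearest bounds were -9.94, -8.30 and -4.49). Below 750 bp the difference was -2.92 points (interval -7.91 to 2.96), and from 2000 bp it was 7.25 points (1.02 to 13.8) in favour of the members. The widest class held 641 members but only 267 weak peaks.

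The gap to the nearest DLX3 peak also differed in both directions by width. Under 750 bp its median was 5219 bp for members and 6166 bp for weak peaks, a difference whose interval, -2566 to 325 bp, includes 0. At 750 to under 1000 bp the median gap was 5071 bp for members and 3512 bp for weak peaks, and at 1000 to under 1500 bp it was 3199 and 2260 bp. At 1500 to under 2000 bp it was 2057 and 1487 bp, and the interval of this difference, -9.40 to 1144 bp, includes 0. At 2000 bp or more it was 459 bp for members and 1310 bp for weak peaks, and 35.6% of those members had a neighbour within 200 bp, against 20.2% of the weak peaks. Within width classes, members were thus closer with an interval that leaves out 0 only at 2000 bp or more (-851 bp, -1278 to -469 bp). At 750 to under 1500 bp members lay farther from other DLX3 peaks than weak peaks did.

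**Figure D3:**
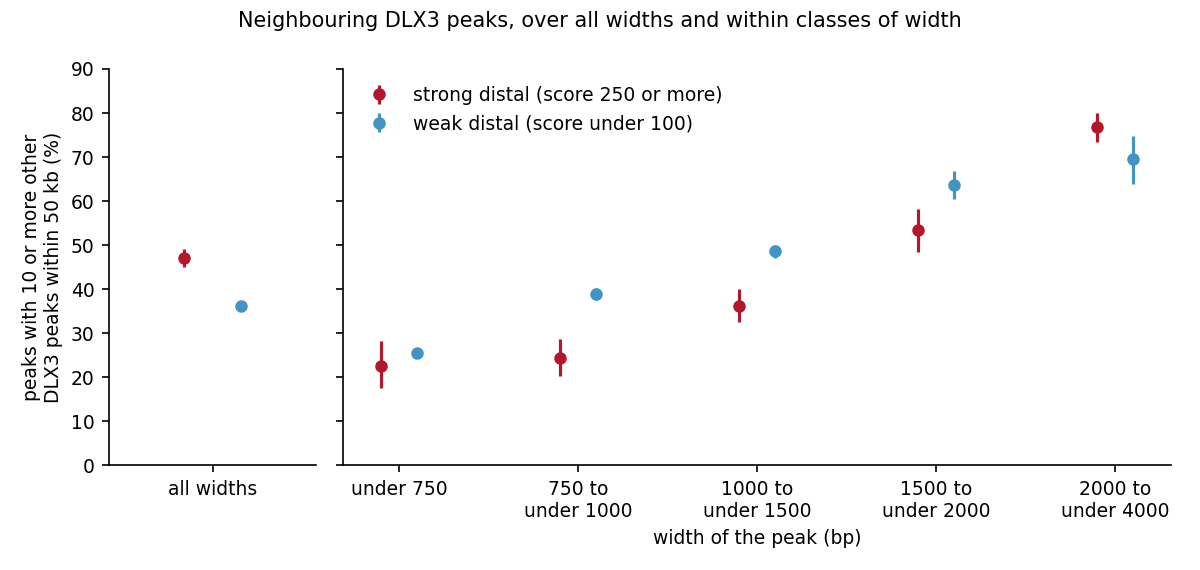
Percentage of strong and weak distal DLX3 peaks with 10 or more other DLX3 peaks within 50 kb (y axis), over all widths (left) and in 5 classes of peak width in bp (right). Points are shares and bars 95% Wilson intervals; the strong peaks are higher over all widths (47.1 against 36.1%) but lower than weak peaks at 750 to under 2000 bp.

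Spacing between members was measured without a comparison set, so it does not show whether they are spread out or gathered. The median gap from a member to the nearest other member was 75.7 kb (75742 bp, quartiles 12349 and 309766 bp). Another member lay within 50 kb of 986 members (43.2%, interval 41.2 to 45.2%), and within 200 bp of 79. When members within 50 kb were chained, the 2284 peaks formed 1676 groups: 1298 single sites, 260 pairs and 118 groups of 3 or more, of which 22 had 5 or more.

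The largest groups were stretches with much DLX3. None held H3K4me3, which the rule largely sets, since a mark cannot lie between members under 20 kb apart. On chromosome 9, chr9:17565877-17629990 held 20 members over 64.1 kb, and 13 other DLX3 peaks, and its members scored 285.7 to 1370 (median 443.5). DLX3 peaks covered 88.2% of this stretch, and joining those within 200 bp left 14 separate regions. On chromosome 6, chr6:135309617-135369762 held 10 members and 8 other DLX3 peaks, 5 of them strong and 4000 bp or wider. Its coverage was 94.0%, and joining left 6 regions. These 2 stretches were nearly continuous in called DLX3 peaks.

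The other 3 groups were more open. The stretch chr16:50098009-50200576 held 9 members among 40 DLX3 peaks, which covered 51.6% of it. The second stretch on chromosome 9, chr9:63315415-63373132, held 8 members among 25 DLX3 peaks with a coverage of 46.4%. On chromosome 18, chr18:3365103-3446939 held 8 members among 25 DLX3 peaks, covering 61.6%, with a highest score of 952.6. In these 3, called DLX3 peaks filled less of the stretch than in the first 2.

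**Figure D4:**
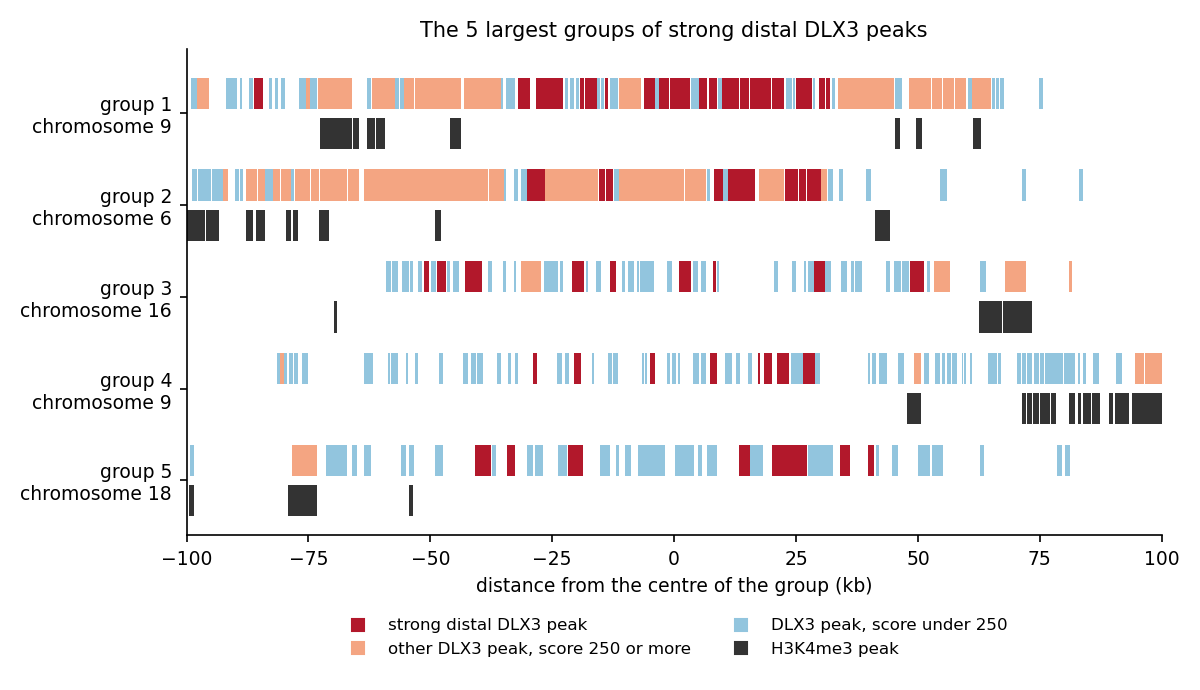
Maps of the 5 largest groups of members, in order of size, with DLX3 peaks above and H3K4me3 peaks below each line; the x axis is the distance in kb from the centre of the group. Groups 1 and 2 (88.2 and 94.0% covered by DLX3) are almost filled and border on other strong DLX3 peaks, whereas in groups 3 to 5 DLX3 covers 46.4 to 61.6%. H3K4me3 peaks lie outside the groups, as the rule on distance largely sets.

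The members with the most neighbours were in those chromosome 9 stretches. The peak chr9:63370772-63373132, with a score of 444.5, had 47 other DLX3 peaks within 50 kb, 7 of them strong and 16 scoring under 100. Peaks with 45 neighbours were chr9:17571231-17575155 (score 438.2), chr9:17579623-17582026 (364.5), chr9:17611418-17613262 (377.1) and chr9:17613400-17615647 (659.5), and 26 or 27 of their neighbours were strong. The crowding was thus made of weak and middling peaks at the former site and largely of strong peaks at the latter.

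Some strong sites stood alone. The strongest of the 48 members without any DLX3 peak within 50 kb was chr3:113607793-113608748, 956 bp wide with a score of 938.4, whose nearest DLX3 peak was 100.4 kb away. The others, in order of score, were chr17:8622822-8623778 (671.4), chr18:33205780-33206121 (574.8), chr2:73787516-73788314 (512.1) and chr6:33769255-33769887 (438.6). Their widths were 957, 342, 799 and 633 bp, under the median of the members. None of these 5 had DLX3 on its nearest H3K4me3 peak, and those H3K4me3 peaks had scores of 52.4 to 271.1. The isolation follows from how they were picked, as does part of the lack of DLX3 where the marked region lay within 50 kb.

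The H3K4me3 peaks nearest to the members tended to have lower scores than those nearest to weak distal peaks. The median score of the nearest H3K4me3 peak was 222.0 for the members (interval 196.3 to 265.3), 275.3 for the intermediate peaks and 409.7 for the weak peaks (380.9 to 448.1). The difference between strong and weak was -187.7 (interval -233.9 to -135.7). These medians count a marked region once for every peak nearest to it. With each H3K4me3 peak counted once, they were 257.1 for the members and 475.5 for the weak peaks, a difference of -218.4 (-286.75 to -147.2). The median over all 25094 H3K4me3 peaks, each also counted once, was 451.2. The scores spread widely, with quartiles of 75.1 and 1803 for the members and 83.4 and 2147 for the weak peaks, so a median alone describes them poorly. In shares the contrast was small: a nearest H3K4me3 peak scoring under 100 was recorded for 34.2% of the members and 30.1% of the weak peaks, a difference of 4.17 points (interval 2.14 to 6.24). Of all 25094 H3K4me3 peaks, 6643 scored under 100. A score of 3100 or more was recorded for 297 members (13.0%) and 14.03% of the weak peaks, where 10.9% of all H3K4me3 peaks reach it. The interval of the difference between strong and weak, -2.44 to 0.490 points, includes 0. These shares of members and weak peaks count shared regions repeatedly, whereas the values over all H3K4me3 peaks count each once.

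The lower score of the marked region was recorded in every class of width, but not in every class of crowding. By width, the difference of the medians was -246.5 under 750 bp (interval -338.6 to -12.3) and -123.3 at 750 to under 1000 bp (-205.4 to -26.4). In the wider classes it was -111.0 (-178.1 to 32.4), -74.6 (-222.5 to 110.1) and, from 2000 bp, -56.7 (-431.2 to 79.7), intervals that include 0 and are wide. Over widths of 1000 to under 2000 bp together it was -113.5 (-172.1 to -21.2). By number of neighbours, it was -250.5 with fewer than 5 other DLX3 peaks within 50 kb and -325.5 with 5 to 9. With 10 to 19 it was -83.9 (interval -197.2 to 39.6), and with 20 or more it was 18.6 (4.01 to 65.1), so that the sign changed. By distance, it was -212.8 at over 10 to 20 kb, -192.5 at over 20 to 50 kb and -108.4 (interval -229.4 to 21.7) at over 50 to 100 kb.

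The share of nearest marked regions that held DLX3 differed little between strong and weak sites over all widths, and differed in both directions by width. An H3K4me3 peak counted as holding DLX3 where a DLX3 peak overlapped it by at least 1 bp. This was so for 1660 members (72.7%, interval 70.8 to 74.5%), for 73.2% of the intermediate peaks and for 71.3% of the weak peaks, whereas 63.9% of all H3K4me3 peaks held DLX3. The difference between strong and weak was 1.36 points, with an interval of -0.609 to 3.26 that includes 0 and does not show that the shares are equal. By width the difference was 6.17 points under 750 bp (0.155 to 11.4) and -5.61 at 1000 to under 1500 bp (-9.57 to -1.86). In the other 3 classes it was -3.94, -3.30 and -3.27, with intervals that include 0, and over widths of 1000 to under 2000 bp together it was -4.33 (-7.44 to -1.36). Several members often share 1 marked region, since the 2284 members had 1754 nearest H3K4me3 peaks. Counting each of these once, 72.2% held DLX3, against 68.3% of the 8544 nearest to weak peaks, a difference of 3.90 points (1.54 to 6.17). A region nearest to both a strong and a weak peak counts in both shares. A DLX3 peak of score 250 or more lay on the nearest marked region of 27.1% of the members and 23.0% of the weak peaks, a difference of 4.06 points (2.18 to 6.01). This difference counts shared regions repeatedly and was not split by width, and the share over all H3K4me3 peaks is not given. Where DLX3 was present on the nearest marked region, its highest score there had a median of 184.1 for members and 169.6 for weak peaks.

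The share with DLX3 depended on the score of the marked region. Here each H3K4me3 peak was counted once per group, so that the groups can be set beside the whole list. A region nearest to both a strong and a weak peak counts in both groups, and the intervals do not allow for this. Among those nearest to members, 62.0% held DLX3 at H3K4me3 scores under 100, 59.7% at 100 to under 300, 67.1% at 300 to under 1000, 79.9% at 1000 to under 2000 and 95.2% at 2000 or more. Among those nearest to weak peaks the shares were 52.6%, 53.1%, 58.5%, 77.9% and 94.2%. The regions near members were higher by 9.40 points in the lowest class (interval 4.92 to 13.8), 6.64 points at 100 to under 300 (0.738 to 12.4) and 8.59 points at 300 to under 1000 (1.43 to 15.2). In the upper 2 classes the interval of the difference included 0. Over all H3K4me3 peaks the shares were 46.1%, 47.3%, 55.2%, 77.4% and 94.0%. With every member counted, and shared regions therefore counted repeatedly, the differences in the 3 lower classes were 6.20 points (2.53 to 9.74), 4.01 (-0.914 to 8.76) and 6.80 (0.765 to 12.3). Regions with DLX3 of their own add to the DLX3 peaks around a site, and width was not held constant here.

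**Figure D5:**
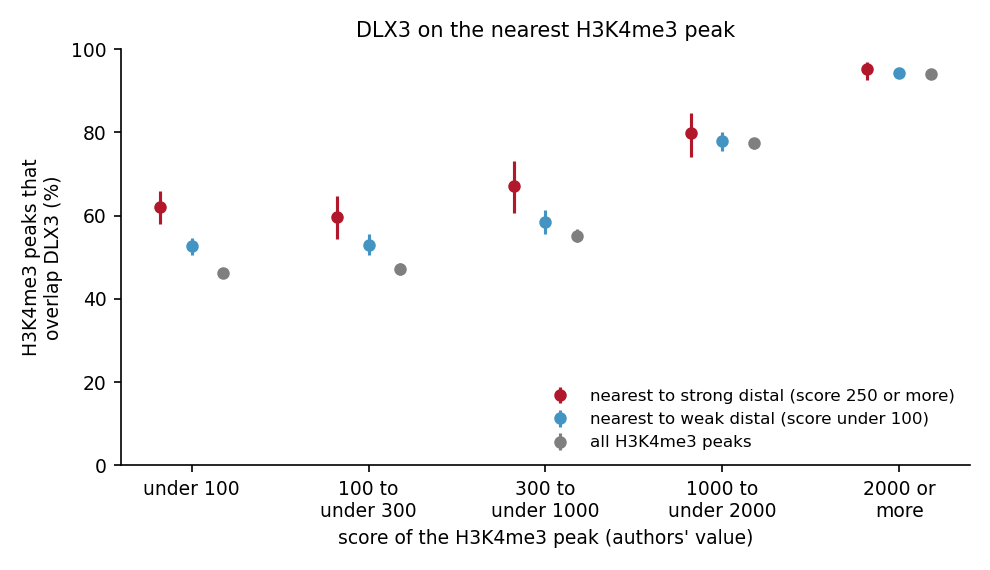
Percentage of H3K4me3 peaks that overlap a DLX3 peak (y axis), by the authors' score of the H3K4me3 peak (x axis), for the H3K4me3 peaks nearest to strong distal and to weak distal DLX3 peaks, each counted once per group, and for all H3K4me3 peaks. Points are shares and bars 95% Wilson intervals; below a score of 1000 those nearest to strong sites are highest (59.7 to 67.1%), and from 2000 all 3 lie at 94.0 to 95.2%.

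DLX3 on the marked region also went with crowding, in both groups. Among members the share was 55.1% with fewer than 5 other DLX3 peaks within 50 kb, 72.6% with 5 to 9, 81.2% with 10 to 19 and 82.9% with 20 or more. The weak peaks gave 58.4%, 73.5%, 80.7% and 82.0%, and in each class the interval of the difference included 0. Whether the trends differ between the groups was not tested. A marked region that lies within the window and holds DLX3 adds to the count of neighbours itself, so the 2 measures are not separate.

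The marked regions that were nearest to the most members lay, apart from 1 on chromosome 5, beside the large groups described above. The H3K4me3 peak chr9:17643278-17644271, 994 bp wide with a score of 51.1, was the nearest mark for 11 members at 13.3 to 42.1 kb, and chr9:17551911-17554150, with a score of 57.4, was the nearest for 9. Both are close to the lowest score listed, and each overlapped 1 DLX3 peak, of score 133.7 and 1449. The peak chr9:63391980-63394884 (score 158.5) was nearest to 8 members, and it overlapped a DLX3 peak of score 354.6. High-scoring marked regions were nearest to 7 members each at chr5:83167951-83174880 (score 2582, with a DLX3 peak of score 273.4) and chr6:135380954-135383864 (score 1314, without DLX3). Strong distal sites thus gathered beside both faint and high-scoring marked regions.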

How the data were processed

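Peak lists of the DLX3 and H3K4me3 libraries were analysed, and the input library was not used here. Bowtie 1.1.2, MACS 1.4.2 and HOMER with build rn5 are named, per the submitters' processing notes, without roles or cutoffs. The sources used here do not say whether peaks were called against the input. The score is the authors' deposited value per peak; the lists have no header line and no source in hand states its scale. With no read counts, the depth is unknown, and the number and width of peaks depend on it.

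Starts are given counted from 1. Distances are edge to edge. The code was tested on simulated lists, and distances to H3K4me3 equalled those of bedtools 2.31.1 for all 69263 DLX3 peaks. Python 3.11.15, numpy 2.4.6, pandas 2.3.3 and scipy 1.17.1 were used. Differences carry intervals by Newcombe's method of squares, applied to Wilson intervals for shares and to order-statistic intervals for medians.

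The members, limits and classes were chosen with earlier results of these data known. Positions named are the 10 highest scores, the 5 members with most neighbours, the 5 strongest without any, the 5 largest groups and the 5 H3K4me3 peaks nearest to most members. The bounds of the width, neighbour and H3K4me3 score classes, their count with each H3K4me3 peak once, and the limit of 10 neighbours, were set after the values were seen.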

Additional observations from a re-analysis of the deposited data

How the results depend on the processing

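The number of members was 3587 with a score limit of 200 and 994 with 350, and it stayed within 1.5 times of 2284 under the other 5 alternatives. The difference in median gap to the nearest DLX3 peak reversed to 618 bp when both groups were limited to widths of 1000 to under 2000 bp. It was -2181.5 bp without a width limit, -2150 bp at over 20 to 100 kb and -2515.5 bp against weak peaks scoring under 60. The difference in the share with 10 or more neighbours reversed to -8.59 points for widths of 1000 to under 2000 bp. It was 14.4 points without a width limit, 13.2 with H3K4me3 peaks of score 100 or more, 7.95 with DLX3 peaks joined within 200 bp, 14.2 against weak peaks under 60, 8.15 within 25 kb and 8.71 within 100 kb. The lower score of the nearest H3K4me3 peak kept its sign under all 10 alternatives, from -229.6 to -113.5, the latter for widths of 1000 to under 2000 bp. None of these alternatives held the number of neighbours fixed. With 20 or more other DLX3 peaks within 50 kb the difference was 18.6 (4.01 to 65.1), and with fewer it was negative. The difference in the share with DLX3 on the nearest H3K4me3 peak was -4.33 points for widths of 1000 to under 2000 bp. It was 3.90 with each H3K4me3 peak counted once, and 4.06 for DLX3 of score 250 or more. The cause of these movements was not tested. No paired analysis was possible because each antibody has a single library, and for the same reason no library could be left out. With depth unknown, neighbours missed for lack of reads would not be counted.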

Other observations

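The stretch without H3K4me3 around a member had a median length of 121228 bp, against 121350 bp around a weak distal peak. The interval of the difference was -5322 to 5226 bp. These medians are over peaks, so a stretch with several peaks counted once for each. The 2284 members lay in 1610 such stretches, of which 1189 held 1 member, 287 held 2 and 134 held 3 or more. The H3K4me3 peak on the farther side was a median of 81597 bp from a member and 83664 bp from a weak peak. The nearer mark lay on the side of higher coordinates for 51.8% of the members (interval 49.7 to 53.8%), and within 100 kb both groups had a median of 3 H3K4me3 peaks.

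The nearest DLX3 peak was on the mark for 115 members (5.04%, interval 4.21 to 6.01%) and for 8.94% of the weak peaks. The rule largely sets these low shares, since every mark lies over 10 kb from the peaks of both groups. The difference was not separated from that in gaps over 10 kb to any other DLX3 peak, found for 19.3% and 29.6%. The nearest DLX3 peak scored 250 or more for 14.4% of the members and 8.86% of the weak peaks, and under 100 for 50.7% and 60.02%. Of all DLX3 peaks, 12.5% score 250 or more and 54.5% score under 100, but that list includes the peaks on the mark. Among peaks under 4000 bp wide, 23.7% on the mark and 7.36% at over 10 to 100 kb score 250 or more. The scores of the nearest DLX3 peak were not split by width.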
